A study of Mus musculus with 12 samples.

Results

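The genes of respiratory complex I were examined in mouse bone marrow-derived macrophages, with or without the nuclear receptor ERRα and with or without lipopolysaccharide (LPS). They were taken as every gene whose symbol begins with Nduf, found on the array through the transcript accession of its probes. The RefSeq gene table held 54 such genes, and 46 of them had probes on the array, 54 probes of the 55681 that were not controls. These 46 genes were 7 core subunits, 29 accessory subunits, 8 assembly factors and 2 genes of the NDUFA4 family. The 8 genes without a matching probe were the accessory subunit Ndufb1 and 7 copies or pseudogenes. A gene was tested if the 3 arrays of 1 group or more all showed one of its probes well above background, which 45 of the 46 met. All 45 were well above background on all 12 arrays. The exception was Ndufa4l2, above background on 2 of 12 arrays, with levels from -6.01 to -4.55 and no comparison made.

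Marrow of male C57BL6 mice, 6 to 8 weeks of age, was grown into macrophages for 5 to 7 days in macrophage colony-stimulating factor. The 4 groups were ERRα-/- cells with LPS at 100 ng/mL, ERRα-/- cells with PBS as the solvent, ERRα+/+ cells with LPS and ERRα+/+ cells with PBS, with 3 arrays in each. How the ERRα allele was made and how long LPS was applied were not stated in the sources at hand. Nothing in the labels says whether replicates came from separate mice or cultures, so p-values measure the spread between these samples, which may be technical. A level is the log2 processed signal of a gene's brightest probe minus the array's 75th percentile, and it can be compared between arrays for 1 probe but not between probes. Differences are log2 differences ± the standard error (SE) of the limma model over 13113 genes, with n = 3 per group, and a gene was called at a Benjamini-Hochberg adjusted p under 0.05.

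Complex I is the largest enzyme of the mitochondrial respiratory chain. Its peripheral arm takes electrons from NADH, passes them along iron-sulfur clusters to ubiquinone, and its membrane arm pumps protons. The core subunits carry out catalysis, the accessory subunits surround and stabilise them, and assembly factors act during construction without staying in the finished enzyme. In macrophages LPS is known to shift metabolism towards glycolysis, and complex I is a known source of reactive oxygen species through reverse electron transport. ERRα, encoded by Esrra, is known as an activator of respiratory chain genes in other tissues such as heart and muscle. The core subunits encoded in mitochondrial DNA had 0 of 7 genes on the array by accession and were not analysed here.

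The arrays differed in ways that bear on these genes. Replicate 1 of every group was on slide 1 and replicates 2 and 3 were on slide 2, so each slide held all 4 groups. Esrra had levels of 4.40, 3.92 and 3.83 in ERRα-/- LPS cells, against 5.87, 6.25 and 6.36 in ERRα+/+ LPS cells. Under PBS it had 2.48, 0.25 and 0.15 in ERRα-/- cells, against 4.54, 4.39 and 4.68 in ERRα+/+ cells. Esrra was thus lower in every ERRα-/- array than in the ERRα+/+ arrays of the same treatment, but ERRα-/- PBS replicate 1 stood above the other 2 arrays of its group. The limma difference was -2.11 ± 0.51 under LPS, which did not pass (adjusted p = 0.202, and 0.0636 with slide as a block), -3.58 ± 0.51 under PBS (adjusted p = 0.0227) and -2.84 ± 0.36 averaged over both (adjusted p = 0.0038). The sources used here do not say whether the probe lies inside the deleted part of the gene, so its level in ERRα-/- cells is no measure of remaining ERRα. Of the ERRα+/+ PBS arrays, replicate 2 had a coefficient of variation of 12.3% between spots of 1 probe and replicate 3 one of 8.19%, against 3.72% to 4.65% on the other arrays. Of the macrophage markers, 8 of the 9 on the array were above background on all arrays of every group.

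LPS left most complex I genes within a narrow range in both genotypes. In ERRα-/- cells 2 of 45 genes rose and 4 fell, and in ERRα+/+ cells 3 rose and 5 fell. Over all 13113 genes 25.1% rose and 25.3% fell in ERRα-/- cells, and 22.2% rose and 23.7% fell in ERRα+/+ cells. Without ERRα-/- PBS replicate 1, 1 rose and 7 fell in ERRα-/- cells, and without ERRα+/+ PBS replicate 2, 1 rose and 2 fell in ERRα+/+ cells. Of all 13113 genes 2991 rose and 3189 fell in the former case, and 2403 rose and 2556 fell in the latter. The largest changes belonged to the assembly factor Ndufaf7, lower in LPS cells in both genotypes, and to the accessory subunit Ndufs4, higher in LPS cells in both. The median size of the LPS difference, regardless of sign, was 0.19 in ERRα-/- and 0.21 in ERRα+/+ over the 45 genes, against 0.66 and 0.63 over all genes tested. The median signed difference was -0.08 in ERRα-/- and -0.07 in ERRα+/+ cells, against 0.05 and 0.02 over all genes. The median SE of the complex I genes was 0.16, against 0.26 over all genes. The complex I probes were also brighter, with a median level by array of 4.89 to 5.21, against 1.21 to 1.35 over all genes tested. These medians are read as probe brightness and not as RNA amount. Whether brightness accounts for the smaller differences and SE was not tested. With a quantile normalization of the arrays the median over all genes moved by -0.20 in ERRα-/- and -0.16 in ERRα+/+ cells, and 26 complex I genes fell in ERRα-/- cells and 22 in ERRα+/+ cells, against 30.1% and 28.3% of all genes. Higher were then 1 complex I gene in ERRα-/- and 0 in ERRα+/+ cells, against 20% and 18.4% of all genes. The medians of the complex I genes lay 0.13 below all genes in ERRα-/- and 0.08 below in ERRα+/+ cells with the percentile scaling, and 0.34 and 0.33 below with quantile normalization. The number of complex I genes called lower depended on the scaling.

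**Figure D1:**
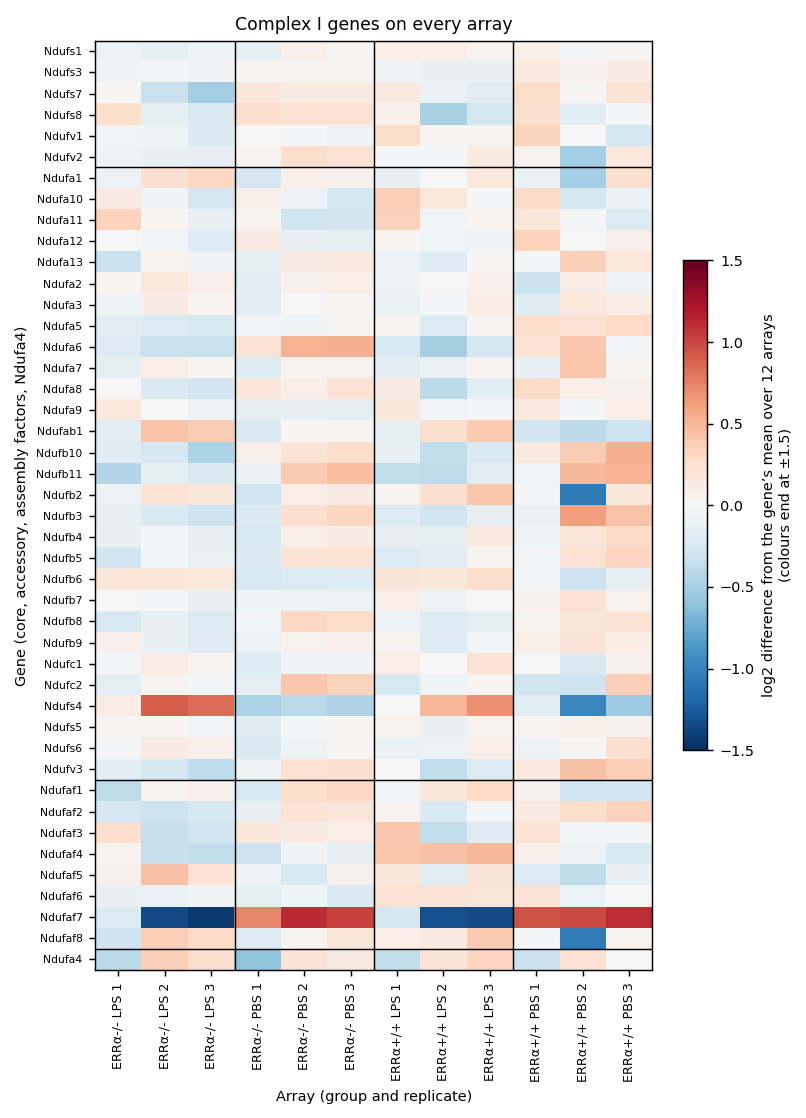
Log2 level of each of 44 tested complex I genes (rows, by role) on each of the 12 arrays (columns, by group and replicate), as the difference from that gene's mean over the 12 arrays. Ndufaf7 is low on all 6 LPS arrays, Ndufs4 is high on the LPS arrays and most of all on replicates 2 and 3, and most other rows are pale.

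The 7 core subunits measured here belong to the peripheral arm, which binds NADH, flavin, the iron-sulfur clusters and ubiquinone. None of the 7 passed the test for LPS in either genotype (limma). Their LPS differences had a median of -0.09 in ERRα-/- and 0.05 in ERRα+/+ cells. The lowest in ERRα-/- cells was that of Ndufs7, which holds the last iron-sulfur cluster before ubiquinone. Ndufs7 had levels of 5.56, 5.21 and 5.04 in ERRα-/- LPS cells, against 5.71, 5.68 and 5.68 in ERRα-/- PBS cells, without overlap. Its difference of -0.42 ± 0.16 missed the threshold (adjusted p = 0.0527) and passed it with slide as a block (adjusted p = 0.00862) or the replicate number as a block (adjusted p = 0.0151), and in ERRα+/+ cells the difference was -0.21 ± 0.16 (adjusted p = 0.327). Ndufv1, which binds NADH and flavin, differed by -0.08 ± 0.17 in ERRα-/- and 0.09 ± 0.17 in ERRα+/+ cells. Ndufs1, which carries several iron-sulfur clusters, differed by -0.08 ± 0.12 in ERRα-/- cells, with a 95% interval of -0.35 to 0.18, and by 0.05 ± 0.12 in ERRα+/+ cells, with an interval of -0.21 to 0.32. Ndufs3 differed by -0.09 ± 0.11 and -0.21 ± 0.11, Ndufs8 by -0.27 ± 0.19 and -0.24 ± 0.19, and Ndufv2 by -0.26 ± 0.18 and 0.13 ± 0.18, each in ERRα-/- and then in ERRα+/+ cells. Of these, Ndufs3 passed in ERRα+/+ cells with slide as a block (adjusted p = 0.0423) but not with the replicate number as a block (adjusted p = 0.0648). The value of Ndufv2 in ERRα+/+ cells was -0.075 without PBS replicate 2.

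Among the 29 accessory subunits, 2 rose and 3 fell with LPS in ERRα-/- cells, and 2 rose and 4 fell in ERRα+/+ cells. Ndufs4, an accessory subunit of the NADH-binding module whose loss causes Leigh syndrome in people, had levels of 4.70, 5.50 and 5.43 in ERRα-/- LPS cells, against 4.12, 4.18 and 4.13 in ERRα-/- PBS cells. Its ERRα+/+ levels were 4.58, 5.09 and 5.28 with LPS, against 4.43, 3.61 and 4.05 with PBS. Every LPS array stood above every PBS array of the same genotype, and the arrays of slide 1 moved least. The difference was 1.07 ± 0.27, a 2.09-fold higher level, in ERRα-/- cells (adjusted p = 0.00817) and 0.96 ± 0.27, 1.94-fold, in ERRα+/+ cells (adjusted p = 0.0153). The call in ERRα-/- cells held without any 1 of the 12 arrays. In ERRα+/+ cells it was lost without LPS replicate 2, LPS replicate 3 or PBS replicate 2, with an adjusted p of up to 0.0653, and with quantile normalization, where the difference was 0.58 (adjusted p = 0.0524).

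Ndufb6, an accessory subunit of the membrane arm, was the other accessory gene that rose in both genotypes. It had levels of 4.71, 4.70 and 4.69 in ERRα-/- LPS cells, against 4.30, 4.32 and 4.33 in ERRα-/- PBS cells. The ERRα+/+ levels were 4.72, 4.70 and 4.80 with LPS, against 4.51, 4.22 and 4.38 with PBS. The groups did not overlap in either genotype, and a second probe of Ndufb6 differed by 0.38 in ERRα-/- and 0.36 in ERRα+/+ cells, close to the 0.38 ± 0.12 (adjusted p = 0.0253) and 0.37 ± 0.12 (adjusted p = 0.0315) of the brighter probe. With quantile normalization both differences of Ndufb6 turned to the other sign, -0.06 in ERRα-/- and -0.02 in ERRα+/+ cells, so its direction depended on the scaling. The call of Ndufb6 was also lost without replicate 2 or 3 of either treatment or PBS replicate 1 in ERRα-/- cells, and in 6 of 12 such fits in ERRα+/+ cells, with an adjusted p of up to 0.107.

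The accessory subunits that fell were Ndufa6, Ndufb10, Ndufb8, Ndufb11 and Ndufv3, the first of them and Ndufb10 in both genotypes. Ndufa6, a subunit of the peripheral arm that binds an acyl carrier protein, had levels of 4.71, 4.57 and 4.57 in ERRα-/- LPS cells, against 5.11, 5.43 and 5.44 in ERRα-/- PBS cells. Its levels in ERRα+/+ cells were 4.68, 4.41 and 4.64 with LPS, against 5.11, 5.30 and 4.88 with PBS. No LPS array reached a PBS array of its genotype. The differences were -0.71 ± 0.16 in ERRα-/- (adjusted p = 0.00432) and -0.52 ± 0.16 in ERRα+/+ cells (adjusted p = 0.0215), and the call in ERRα+/+ cells was lost without LPS replicate 2 or PBS replicate 2 of that genotype, with an adjusted p of up to 0.0895.

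Ndufb10, a membrane arm subunit that faces the intermembrane space, had levels of 5.58, 5.50 and 5.28 in ERRα-/- LPS cells, against 5.84, 5.96 and 6.01 in ERRα-/- PBS cells. ERRα+/+ cells had 5.65, 5.38 and 5.53 with LPS, against 5.89, 6.14 and 6.29 with PBS. The groups were apart in both genotypes. The difference was -0.48 ± 0.15 in ERRα-/- (adjusted p = 0.0236) and -0.58 ± 0.15 in ERRα+/+ cells (adjusted p = 0.0104). The call held without any 1 array in ERRα+/+ cells and in 8 of 12 such fits in ERRα-/- cells, where it was lost without replicate 2 or 3 of either treatment.

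Ndufb8, Ndufb11 and Ndufv3 were each called in 1 genotype. Ndufb8, of the membrane arm, had levels of 5.95, 6.08 and 5.98 in ERRα-/- LPS cells, against 6.17, 6.50 and 6.46 in ERRα-/- PBS cells, a difference of -0.37 ± 0.14 (adjusted p = 0.04). That call was lost in most of the fits that left out 1 array. For ERRα+/+ cells the difference was -0.29 ± 0.14 (adjusted p = 0.103), which passed with slide as a block (adjusted p = 0.0317) and with the replicate number as a block (adjusted p = 0.0481). Ndufb11, a membrane arm subunit encoded on the X chromosome, had levels of 5.94, 5.92 and 6.14 in ERRα+/+ LPS cells, against 6.26, 6.79 and 6.83 in ERRα+/+ PBS cells. Its difference there was -0.63 ± 0.20 (adjusted p = 0.0274), beside -0.52 ± 0.20 (adjusted p = 0.0544) in ERRα-/- cells, which passed with the replicate number as a block (adjusted p = 0.00775). Ndufb11 lost its ERRα+/+ call without LPS replicate 1 or 2 or PBS replicate 2 or 3, with an adjusted p of up to 0.0979. Ndufv3, a small subunit of the NADH-binding module, differed by -0.51 ± 0.16 in ERRα+/+ cells (adjusted p = 0.0234), a call lost without replicate 2 or 3 of either treatment, with an adjusted p of up to 0.0977, and with the mean of its probes. Its ERRα-/- difference of -0.40 ± 0.16 (adjusted p = 0.0579) passed with the replicate number as a block (adjusted p = 0.0493). The second, dimmer probes of Ndufb11 and Ndufv3 also had values below 0 in both genotypes, with -0.85 and -1.01 for Ndufb11 and -1.13 and -0.56 for Ndufv3 in ERRα-/- and ERRα+/+ cells. A call in 1 genotype does not show that the genotypes differed, and the test of that difference called none of these genes.

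Assembly factors held the largest single change. Ndufaf7, a methyltransferase that acts early in assembly, had levels of 0.90, -0.25 and -0.35 in ERRα-/- LPS cells, against 1.84, 2.22 and 2.13 in ERRα-/- PBS cells. Its ERRα+/+ levels were 0.85, -0.22 and -0.24 with LPS, against 2.06, 2.096 and 2.21 with PBS. All 6 LPS arrays were below all 6 PBS arrays, and the LPS arrays of slide 1 stood above those of slide 2. The difference was -1.96 ± 0.36 in ERRα-/- cells (adjusted p = 0.00129), a 3.90-fold lower level, and -1.99 ± 0.36 in ERRα+/+ cells (adjusted p = 0.00131), a 3.98-fold lower level. Both calls held without any 1 of the 12 arrays and with quantile normalization.

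The other 7 factors named Ndufaf moved less. Ndufaf4, which acts with Ndufaf3 on the peripheral arm, rose in ERRα+/+ cells, where LPS arrays had 2.49, 2.51 and 2.56, against 2.15, 1.99 and 1.83 with PBS. Its difference there was 0.53 ± 0.16 (adjusted p = 0.0188), and in ERRα-/- cells it was -0.06 ± 0.16, with LPS levels of 2.12, 1.72 and 1.70 against PBS levels of 1.76, 2.01 and 1.95. The ERRα+/+ call of Ndufaf4 was lost without LPS replicate 2 or 3 or PBS replicate 3, with an adjusted p of up to 0.072, with the mean of its probes, and with quantile normalization, where the difference was 0.40 (adjusted p = 0.0678). Ndufaf1, part of the complex that builds the membrane arm, differed by -0.20 ± 0.21 in ERRα-/- and 0.32 ± 0.21 in ERRα+/+ cells. Ndufaf2, a late assembly factor related to Ndufa12, differed by -0.36 ± 0.14 in ERRα-/- (adjusted p = 0.058) and -0.31 ± 0.14 in ERRα+/+ cells (adjusted p = 0.0993). Ndufaf5, which hydroxylates Ndufs7, and Ndufaf8, its partner, differed by 0.32 ± 0.16 and 0.10 ± 0.29 in ERRα-/- cells and by 0.30 ± 0.16 and 0.56 ± 0.29 in ERRα+/+ cells. For Ndufaf8 the value in ERRα+/+ cells rested on PBS replicate 2, at 0.37 against 1.40 and 1.46 on the other PBS arrays, and was 0.20 without it. Ndufb2, an accessory subunit, differed by 0.54 ± 0.29 in ERRα+/+ cells (adjusted p = 0.15), with the same array at the low end, and by 0.16 without it. Ndufaf3 and Ndufaf6 differed by -0.26 ± 0.22 and 0.05 ± 0.13 in ERRα-/- cells and by -0.11 ± 0.22 and 0.16 ± 0.13 in ERRα+/+ cells.

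**Figure D2:**
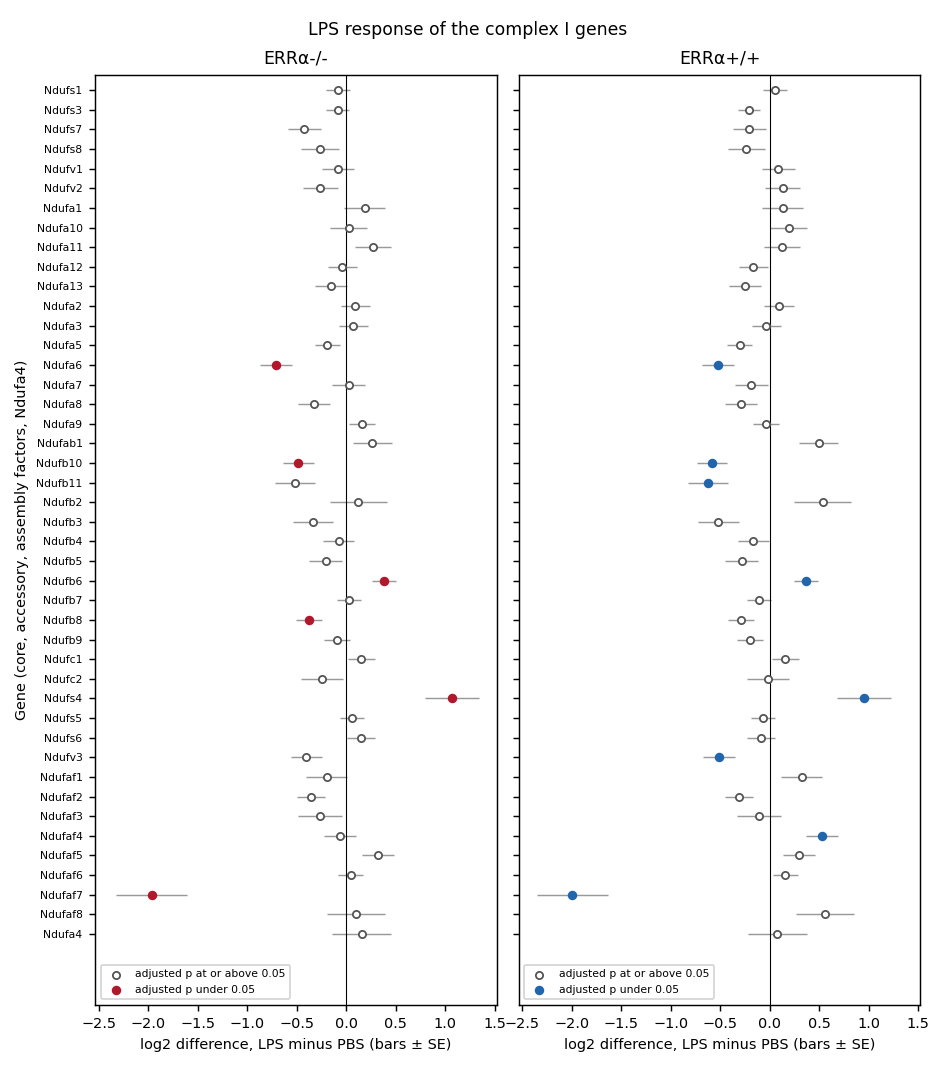
Log2 LPS minus PBS difference (horizontal axis, bars ± SE of the model, n = 3 arrays per group) of 44 complex I genes in ERRα-/- (left) and ERRα+/+ (right) cells; filled points have an adjusted p under 0.05. Ndufaf7 at -1.96 and -1.99 and Ndufs4 at 1.07 and 0.96 stand apart from the rest in both panels.

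Of the 45 genes, 5 were called in both genotypes, 1 in ERRα-/- cells alone, 3 in ERRα+/+ cells alone and 36 in neither. The 5, or 11.1%, were called in the same direction in both genotypes, as were 40.6% of all genes, with 19.5% of all genes higher in both and 21.1% lower in both. The 5 were Ndufaf7, Ndufa6 and Ndufb10, which fell, and Ndufs4 and Ndufb6, which rose. The LPS differences had the same sign in both genotypes for 33 of the 45 genes. Across the 45 genes their Pearson r was 0.89 and Spearman's rho 0.78, and r was 0.74 without Ndufaf7 and Ndufs4. This is a description across genes that share arrays and slides, and genes are not independent replicates. The share of all genes with the same sign in both genotypes is not given here.

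The size of the LPS response differed between the slides. On slide 1, with 1 array per group, the median absolute LPS difference was 0.13 in ERRα-/- and 0.11 in ERRα+/+ cells, against 0.22 and 0.26 on slide 2. Of the 45 genes 28 in ERRα-/- and 40 in ERRα+/+ cells had the larger difference on slide 2, and 35 and 33 had the same sign on both slides. The shares over all genes are not given here, so these counts are not particular to complex I. Ndufaf7 differed by -0.94 on slide 1 and -2.48 on slide 2 in ERRα-/- cells, and by -1.22 and -2.38 in ERRα+/+ cells. Ndufs4 differed by 0.58 and 1.31 in ERRα-/- cells and by 0.16 and 1.36 in ERRα+/+ cells.

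With slide as a block, 3 complex I genes rose and 9 fell in ERRα-/- cells, and 4 rose and 12 fell in ERRα+/+ cells. The shares over all genes were then 33.5% and 32% in ERRα-/- cells and 31.3% and 31.4% in ERRα+/+ cells. The genes added by the block that fell in ERRα-/- cells were Ndufb11, Ndufs7, Ndufv3, Ndufaf2 and Ndufa8. Those added in ERRα+/+ cells were Ndufb3, Ndufaf2, Ndufa5, Ndufa8, Ndufb8, Ndufb5 and Ndufs3. Ndufa11 in ERRα-/- cells and Ndufab1, the mitochondrial acyl carrier protein, in ERRα+/+ cells were added among those that rose. With the replicate number as a block, 3 rose and 9 fell in ERRα-/- cells, against 32.5% and 31.2% of all genes. In ERRα+/+ cells 4 then rose and 9 fell, against 30.1% and 30.4% of all genes. Within slide 2 alone, 3 rose and 15 fell in ERRα-/- cells, against 38% and 35.7% of all genes, and 6 rose and 15 fell in ERRα+/+ cells, against 36.5% and 35.8% of all genes. On that slide the complex I genes that fell were thus 33.3% of those tested in each genotype, near the share of all genes, and those that rose were 6.67% in ERRα-/- and 13.3% in ERRα+/+ cells.

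**Figure D3:**
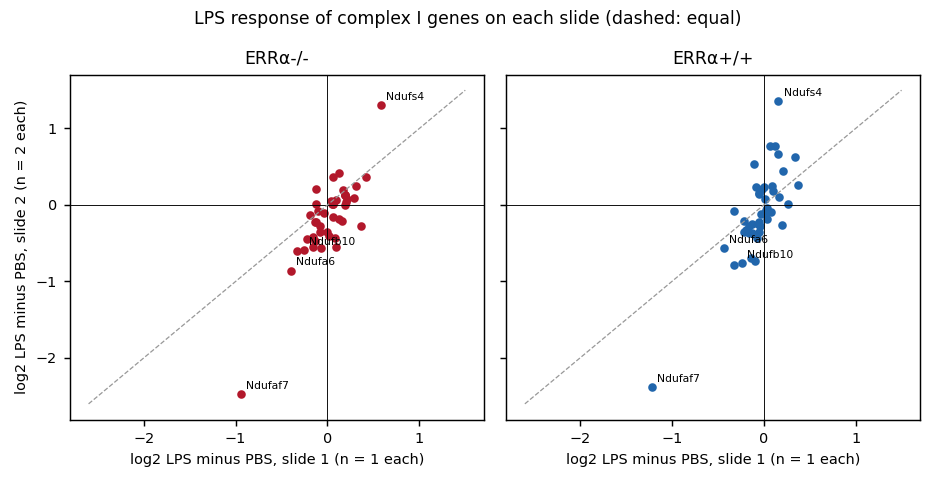
Log2 LPS minus PBS difference of 44 complex I genes on slide 1 (horizontal axis, 1 array per group) and on slide 2 (vertical axis, mean of 2 arrays per group) in ERRα-/- (left) and ERRα+/+ (right) cells; the dashed line marks equal values. The points lie along a line steeper than the dashed one, with Ndufaf7 at -0.94 and -2.48 in ERRα-/- cells.

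The NDUFA4 family was read separately, since Ndufa4 was first described as a complex I subunit and is now placed with cytochrome c oxidase. Ndufa4 had levels of 5.23, 6.00 and 5.88 in ERRα-/- LPS cells, against 5.03, 5.84 and 5.77 in ERRα-/- PBS cells. The ERRα+/+ arrays had 5.26, 5.83 and 5.96 with LPS, against 5.32, 5.87 and 5.64 with PBS. All groups overlapped and the slides parted more than the treatments, with LPS differences of 0.16 ± 0.29 in ERRα-/- and 0.08 ± 0.29 in ERRα+/+ cells. Its paralogue AA467197, also named Nmes1, whose product replaces NDUFA4 in cytochrome c oxidase during inflammation, had levels of 3.21, 7.39 and 7.53 in ERRα-/- LPS cells, against -0.59, 0.26 and 0.20 in ERRα-/- PBS cells. For ERRα+/+ cells the levels were 2.57, 6.44 and 6.65 with LPS, against -0.14, 0.54 and 0.31 with PBS. The LPS difference of AA467197 was 6.09 ± 1.22 in ERRα-/- (adjusted p = 0.00222) and 4.98 ± 1.22 in ERRα+/+ cells (adjusted p = 0.00726), with replicate 1 far below the other LPS arrays in both genotypes.

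**Figure D4:**
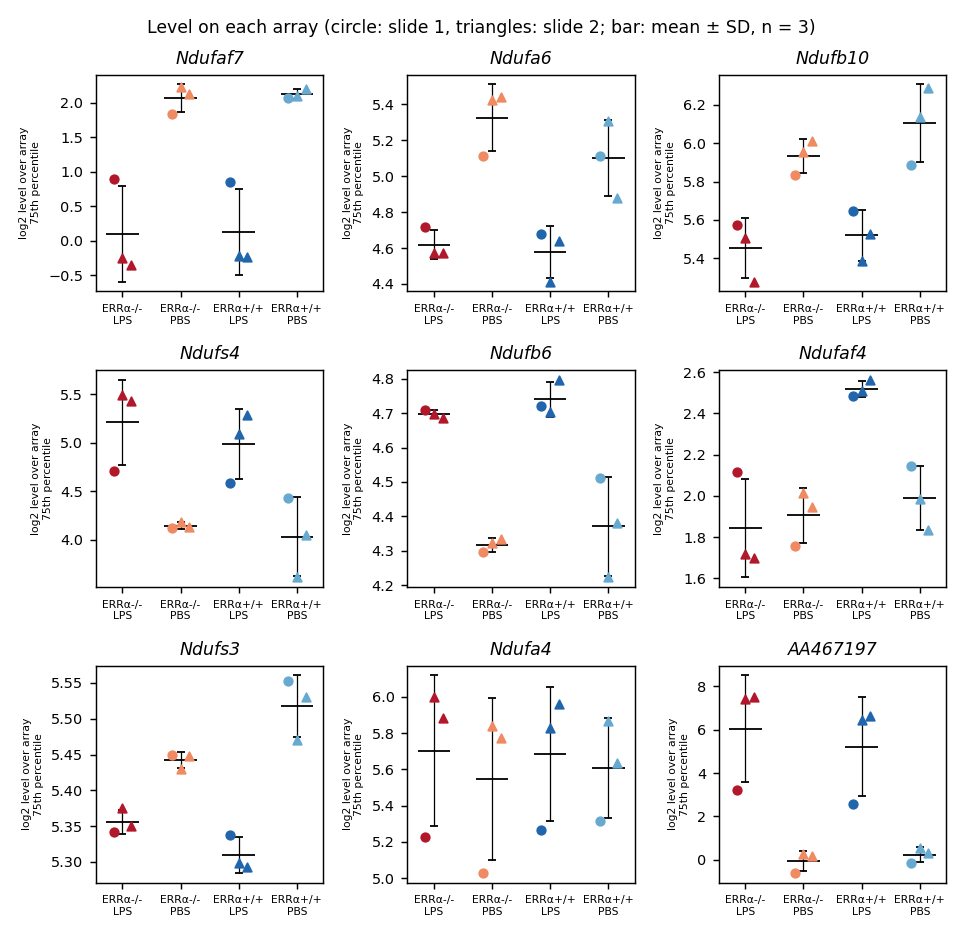
Log2 level over the array's 75th percentile (vertical axes, which differ between panels) on every array for 8 complex I genes and AA467197, by group. Circles are slide 1, triangles are slide 2, and bars give the mean ± SD of 3 arrays. LPS and PBS arrays are apart in both genotypes for Ndufaf7, Ndufa6, Ndufb10, Ndufs4, Ndufb6, Ndufs3 and AA467197, and in ERRα+/+ cells alone for Ndufaf4.

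No complex I gene was called between the genotypes. Under PBS 0 of 45 passed the limma test, where 0.427% of all genes did, and 1 of 45 had an unadjusted p under 0.05, against 6.59% of all genes. Under LPS 0 of 45 passed, against 0.13% of all genes, and 2 of 45 had an unadjusted p under 0.05, against 6.24%. Averaged over both treatments 0 of 45 passed, against 1.37%, and 3 had an unadjusted p under 0.05, against 9.4%. With slide as a block the shares of all genes were 2.12% under PBS, 1.61% under LPS and 4.95% averaged, and the complex I gene that passed was Ndufaf4, under LPS. With the replicate number as a block 0 of 45 passed in any of them, against 1.47% under PBS, 1.01% under LPS and 3.81% averaged. Within slide 2 alone 2 genes passed under PBS, 1 under LPS and 3 averaged, against 9.55%, 16.9% and 20.4% of all genes. The median genotype difference of the 45 genes was -0.03 under LPS, -0.06 under PBS and -0.05 averaged, against -0.007, -0.023 and -0.015 over all genes. The median under PBS was -0.17 on slide 1 and 0.02 on slide 2, of opposite sign. The averaged difference was below 0 for 31 of the 45 genes and above 0 for 14. The share of all genes below 0 is not given here, but their median of -0.015 was below 0 as well.

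The intervals bound what these arrays could miss. Averaged over both treatments, the 95% interval of the ERRα-/- minus ERRα+/+ difference lay within ±1 log2 unit for 45 of 45 genes and within ±0.5 for 39. Under LPS it lay within ±1 for 44 genes and within ±0.5 for 26, and under PBS for 44 and 23 genes. The widest bounds were -1.02 under LPS, for Ndufaf4, and 1.00 under PBS, for Ndufaf8. For the 7 core subunits the averaged differences ran from -0.13 to 0.20, for the 29 accessory subunits from -0.22 to 0.17, and for the 8 assembly factors from -0.38 to 0.17.

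Ndufaf4 had the lowest genotype difference under LPS. ERRα-/- LPS cells had levels of 2.12, 1.72 and 1.70, against 2.49, 2.51 and 2.56 in ERRα+/+ LPS cells. The groups did not overlap, and ERRα+/+ LPS arrays were the highest of the 12. The difference was -0.67 ± 0.16, with a 95% interval of -1.02 to -0.33, and its adjusted p was 0.189 without a block, 0.0465 with slide as a block and 0.0783 with the replicate number as a block. It was -0.37 on slide 1 and -0.83 on slide 2. A second probe of Ndufaf4 had levels of 0.39, -0.36 and -0.42 in ERRα-/- LPS cells, against 0.93, 0.65 and 0.62 in ERRα+/+ LPS cells, also without overlap. Under PBS that probe had 0.37, 0.81 and 0.70 in ERRα-/- cells, against 0.74, 0.28 and 0.27 in ERRα+/+ cells, which overlapped. Under PBS the brighter probe differed by -0.08 ± 0.16.

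Averaged over both treatments, Ndufaf4 differed by -0.38 ± 0.11 (adjusted p = 0.187), Ndufaf6 by -0.24 ± 0.09 and Ndufa5 by -0.22 ± 0.09, and at the other end stood Ndufs8 at 0.20 ± 0.13, Ndufs4 at 0.17 ± 0.19 and Ndufaf5 at 0.17 ± 0.12. Ndufaf6, an assembly factor related to phytoene synthases, differed by -0.30 ± 0.13 under LPS (adjusted p = 0.74) and -0.18 ± 0.13 under PBS. Ndufa5, a peripheral arm subunit, had levels of 5.32, 5.32 and 5.41 in ERRα-/- PBS cells, against 5.63, 5.59 and 5.67 in ERRα+/+ PBS cells, and differed by -0.28 ± 0.12 (adjusted p = 0.732). Ndufa9, at -0.21 ± 0.13, and Ndufb3, at -0.20 ± 0.21, followed it under PBS. The most positive values under PBS were those of Ndufaf8 at 0.36 ± 0.29, Ndufaf1 at 0.29 ± 0.20 and Ndufab1 at 0.28 ± 0.20, and that of Ndufaf8 was 0.005 without ERRα+/+ PBS replicate 2. Within slide 2, Ndufaf1 and Ndufab1 passed under PBS, with differences of 0.59 and 0.39. On slide 1 the PBS difference of Ndufaf1 was -0.31, of the opposite sign. Under LPS the most positive were Ndufs4 at 0.22 ± 0.27, Ndufs8 at 0.19 ± 0.19 and Ndufaf5 at 0.18 ± 0.16, and the most negative after Ndufaf4 and Ndufaf6 was Ndufs7 at -0.24 ± 0.16.

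ERRα+/+ PBS replicate 2 touched several of these values. On that array Ndufa1, Ndufaf8, Ndufb2, Ndufc2 and Ndufv2 were over 0.5 below replicate 3 of the same group, and in no other group did any of the 45 genes part replicates 2 and 3 by that much. Ndufb2, a small membrane arm subunit, had 4.45, 3.41 and 4.64 on the ERRα+/+ PBS arrays, against 4.17, 4.57 and 4.59 on the ERRα-/- PBS arrays. Its genotype difference under PBS was 0.28 ± 0.29 with the array and -0.10 without it. Under PBS the genotype difference without the array was -0.11 for Ndufa1, 0.16 for Ndufc2 and 0.065 for Ndufv2, against 0.09, 0.28 and 0.27 with it. Leaving out ERRα+/+ PBS replicate 2 or ERRα-/- PBS replicate 1 gave 0 called complex I genes in each genotype contrast, as did leaving out any other array.

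The response to LPS was also compared between genotypes directly. The test of that difference called 0 of 45 complex I genes and 0% of all genes, without a block, with slide as a block or with the replicate number as a block. Within slide 2 it called Ndufaf4 and Ndufaf1, 2 of 45, against 4.19% of all genes. At an unadjusted p under 0.05 it held 1 complex I gene and 2.24% of all genes. That gene was Ndufaf4, with an ERRα-/- minus ERRα+/+ difference in LPS response of -0.59 ± 0.22 (adjusted p = 0.9999). Ndufaf1 at -0.52 ± 0.29 and Ndufaf8 at -0.45 ± 0.41 were next, the value of Ndufaf8 being -0.10 without ERRα+/+ PBS replicate 2, and the most positive were Ndufs6 at 0.24 ± 0.20, Ndufa7 at 0.22 ± 0.23 and Ndufa9 at 0.20 ± 0.18. The SE of this difference was 0.23 at the median, so its 95% interval lay within ±0.5 for 5 of 45 genes and within ±1 for 40.

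Markers of other cells moved beside these genotype values and beside those of LPS. Sums were taken of the linear level, in units of the array's 75th percentile, over all probes of the markers on the array. For the 4 erythroid and megakaryocyte markers the sum was 101 to 109 in ERRα-/- LPS cells, against 142 to 204 in ERRα+/+ LPS cells. Under PBS it was 63.2 to 68.8 in ERRα-/- cells, against 73.1 to 116 in ERRα+/+ cells. The groups did not overlap under either treatment, and 1 of the 4 markers on the array was not above background on any array of any group. The 7 neutrophil markers summed to 328 to 508 in ERRα-/- LPS cells, against 273 to 553 in ERRα+/+ LPS cells, and under PBS to 235 to 292 in ERRα-/- cells, against 313 to 455 in ERRα+/+ cells, without overlap under PBS. The 5 stromal and endothelial markers summed to 1.22 to 1.37 in ERRα-/- PBS cells, against 1.80 to 3.38 in ERRα+/+ PBS cells, without overlap. The 3 mast cell and basophil markers summed to 0.424 to 0.762 in ERRα-/- PBS cells, against 0.953 to 1.01 in ERRα+/+ PBS cells, also without overlap. Between treatments the erythroid and megakaryocyte sums given above stood higher with LPS in both genotypes, without overlap. In ERRα+/+ cells Hba-a1 went the other way, at -0.89 ± 0.44, beside Pf4 at 0.85 ± 0.20 and Itga2b at 0.30 ± 0.37. The stromal and endothelial sums were 4.82 to 8.83 in ERRα-/- LPS cells and 5.40 to 11.1 in ERRα+/+ LPS cells, above all PBS arrays. Pdgfrb was the one of the 5 called (5.29 ± 0.48 in ERRα-/- and 5.35 ± 0.48 in ERRα+/+ cells). Col1a1, Col3a1, Cdh5 and Pecam1 differed by -0.40 to 0.75 in ERRα-/- cells, and by -0.65 to -0.12, all below 0, in ERRα+/+ cells. The neutrophil sum was higher with LPS without overlap in ERRα-/- cells, and overlapped in ERRα+/+ cells. Such sums follow the brightest probes, and single markers parted. In ERRα-/- cells S100a8, S100a9, Camp and Ngp differed by 0.63 to 1.14, and Mpo, Elane and Ltf by -1.425 to -0.21. In ERRα+/+ cells S100a8, S100a9 and Camp differed by 0.23 to 0.30, and Elane, Ltf and Ngp by -0.60 to -0.23. Mpo was called lower there, at -2.61 ± 0.56 (limma adjusted p = 0.00362). The macrophage markers too summed higher with LPS without overlap. They had 1853 to 2255 in ERRα-/- LPS cells, against 1333 to 1844 with PBS, and 1786 to 2063 in ERRα+/+ LPS cells, against 946.5 to 1677 with PBS. Of these markers Cd14 was called higher and Mrc1 lower with LPS in both genotypes, and the genotypes overlapped under each treatment. The B cell markers summed to 0.892 to 0.951 in ERRα+/+ LPS cells, against 1.16 to 1.19 in ERRα+/+ PBS cells, and overlapped in the other comparisons. Sums of the dendritic cell and of the T and NK cell markers overlapped in each comparison of LPS with PBS and of the genotypes. The dendritic cell marker Zbtb46 was nonetheless called higher with LPS, by 6.63 ± 0.35 in ERRα-/- and 6.25 ± 0.35 in ERRα+/+ cells. Flt3, Itgax and Cd209a differed by -0.87 to -0.11 in ERRα-/- and by -2.33 to -0.10 in ERRα+/+ cells, none of them called. The part of all these markers in the complex I values was not tested, and in bulk RNA fewer cells of a type and less RNA per cell cannot be told apart.

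**Figure D5:**
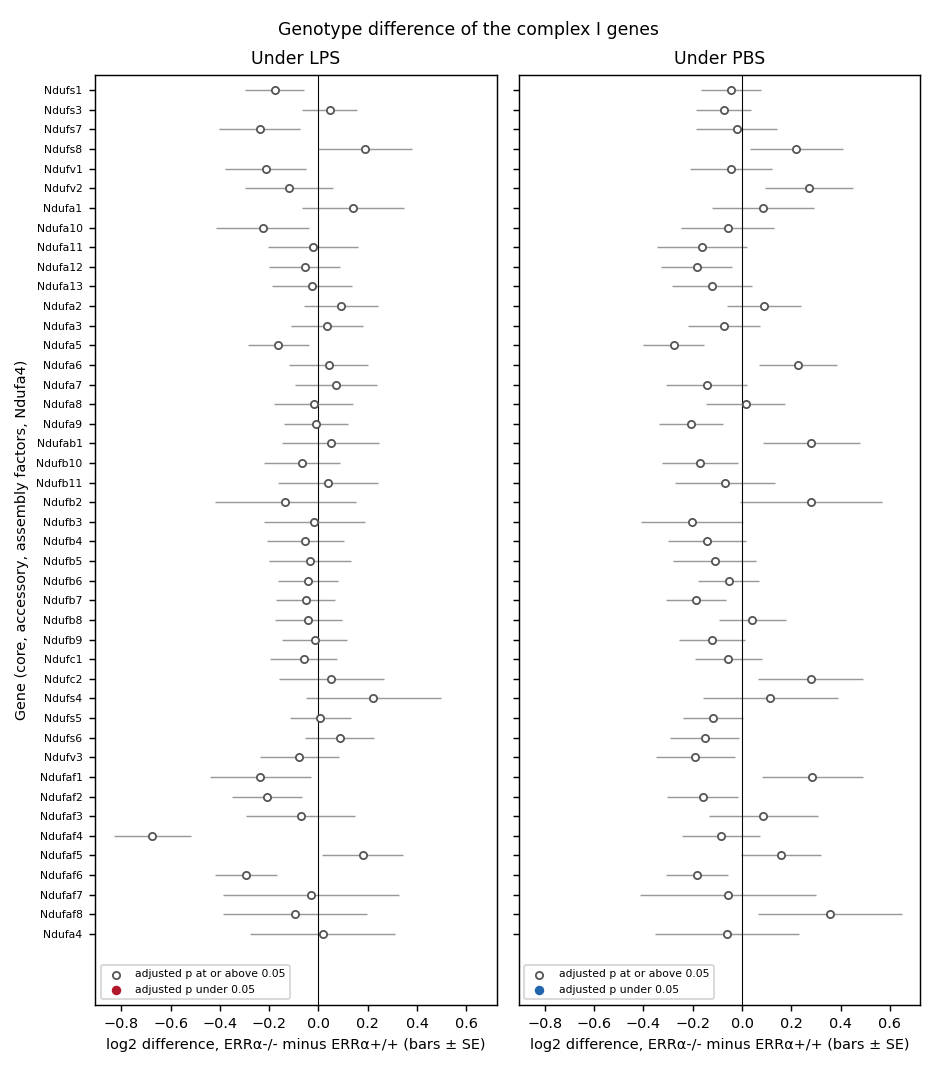
Log2 ERRα-/- minus ERRα+/+ difference (horizontal axis, bars ± SE of the model, n = 3 arrays per group) of 44 complex I genes under LPS (left) and PBS (right); open points have an adjusted p at or above 0.05, and there is no filled point. Ndufaf4 under LPS, at -0.67, is farthest from 0.

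The promoters were searched for a form of the element that ERRα is known to bind, because genes with it could be read beside the genotype differences. RefSeq promoter windows of build GRCm38.p6, from 250 bases before to 50 after the annotated start, were at hand for 40 of the 45 tested genes, in 42 windows. The full element TCAAGGTCA was searched on both strands and lay in 0 of the 42 windows, against 0.423% of all 32851 windows. The core AAGGTCA, which is contained in both of these strings, lay in 3 of 42 windows, or 7.14%, against 4.72% of all windows. The 3 were the accessory subunits Ndufb2 (chr6:39592315-39592564, plus strand), Ndufb4 (chr16:37654369-37654618, minus strand) and Ndufs5 (chr4:123718187-123718436, minus strand). Their 250 bases before the start are shown 5′ to 3′ in the direction of the gene, with the core in capitals, reading AAGGTCA, or TGACCTT where it lies on the other strand.
Ndufb2: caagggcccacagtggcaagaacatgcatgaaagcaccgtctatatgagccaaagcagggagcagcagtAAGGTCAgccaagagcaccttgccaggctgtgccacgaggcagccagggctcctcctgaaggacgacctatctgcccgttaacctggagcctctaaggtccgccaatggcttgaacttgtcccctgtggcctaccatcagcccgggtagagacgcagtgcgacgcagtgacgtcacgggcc
Ndufb4: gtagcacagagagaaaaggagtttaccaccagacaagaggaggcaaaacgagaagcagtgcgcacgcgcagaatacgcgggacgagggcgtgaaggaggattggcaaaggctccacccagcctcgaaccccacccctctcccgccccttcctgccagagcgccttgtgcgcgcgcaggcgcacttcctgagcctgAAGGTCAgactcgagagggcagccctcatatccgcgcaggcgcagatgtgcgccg
Ndufs5: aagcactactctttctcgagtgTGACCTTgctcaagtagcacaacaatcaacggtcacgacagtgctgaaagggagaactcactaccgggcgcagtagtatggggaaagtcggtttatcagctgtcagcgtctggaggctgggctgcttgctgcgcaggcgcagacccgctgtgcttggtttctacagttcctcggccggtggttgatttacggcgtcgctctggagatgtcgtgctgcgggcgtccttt

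The core began 181 bases before the start in Ndufb2, 55 bases in Ndufb4 and 228 bases in Ndufs5. Averaged over both treatments, the genotype difference was 0.07 ± 0.20 for Ndufb2, -0.10 ± 0.11 for Ndufb4 and -0.06 ± 0.09 for Ndufs5, and none was called in any contrast. Ndufb4 and Ndufs5 have close copies in the genome, and cross-hybridisation of their probes was not tested. The ETS motif CCGGAAG, bound by GABPA, lay in 14.3% of the complex I windows, against 8.86% of all windows. The NRF1 motif GCATGCGC lay in 11.9%, against 2.71%, and CCAAT in 33.3%, against 37.4%. The 5 genes with the NRF1 motif were Ndufa6, Ndufa8, Ndufa11, Ndufaf4 and Ndufaf5, of which Ndufa6 fell with LPS in both genotypes and Ndufaf4 rose in ERRα+/+ cells. Neither Ndufaf7 nor Ndufs4 held any of the motifs searched. A match is a string of letters and not a measured site, and a window without a match says nothing about the factor.

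Other genes of the same pathway were read from lists of their own. Of 11 tested complex I assembly factors with other names, 2 rose and 7 fell with LPS in ERRα-/- cells, and 1 rose and 3 fell in ERRα+/+ cells. Those that fell were 63.6% and 27.3% of the list, against 25.3% and 23.7% of all genes, so the ERRα+/+ count lay near the share of all genes. Their median LPS difference was -0.61 in ERRα-/- and -0.20 in ERRα+/+ cells, against 0.05 and 0.02 over all genes. Dmac2, a factor of the distal membrane arm, had levels of 2.49, 1.71 and 1.64 in ERRα-/- LPS cells, against 3.55, 3.77 and 3.79 in ERRα-/- PBS cells, and fell by 1.76 ± 0.26 (adjusted p = 0.000418). In ERRα+/+ cells Dmac2 fell by 1.28 ± 0.26 (adjusted p = 0.00278). Tmem126b, a partner of Ndufaf1, fell by 1.29 ± 0.20 in ERRα-/- and by 0.91 ± 0.20 in ERRα+/+ cells. Nubpl, which delivers iron-sulfur clusters, fell by 0.63 ± 0.18 and 0.49 ± 0.18 in the same genotypes. Ecsit, Timm21, Dmac1 and Tmem186 were called lower in ERRα-/- cells, with differences from -1.03 to -0.52. Tmem70, which acts on complex I and the ATP synthase, rose by 1.00 ± 0.29 in ERRα-/- and 1.20 ± 0.29 in ERRα+/+ cells, and Timmdc1 rose by 0.65 ± 0.20 in ERRα-/- cells. No gene of this list was called between genotypes or in the difference of the LPS response.

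Complex II and its assembly factors had 0 higher and 3 lower genes of 8 in ERRα-/- cells, and 0 higher and 1 lower in ERRα+/+ cells. The lower genes were 37.5% and 12.5% of the list, against 25.3% and 23.7% of all genes, and with so few genes these counts are a description alone. The 3 were assembly factors, Sdhaf1 at -1.18 ± 0.33, Sdhaf3 at -0.75 ± 0.19 and Sdhaf4 at -0.82 ± 0.19 in ERRα-/- cells, and Sdhaf4 was also lower in ERRα+/+ cells, at -0.74 ± 0.19. None of the subunits of complex II was called. Of 7 tested enzymes that pass electrons to ubiquinone by other routes, 1 rose and 3 fell in ERRα-/- cells, and 2 rose and 2 fell in ERRα+/+ cells. Over all genes 25.1% rose and 25.3% fell in ERRα-/- cells and 22.2% rose and 23.7% fell in ERRα+/+ cells, and the counts of 2 of 7, or 28.6%, lay near those shares. Gpd2, the mitochondrial glycerol 3-phosphate dehydrogenase, had levels of 4.47, 5.29 and 5.29 in ERRα-/- LPS cells, against 0.94, 0.94 and 0.81 in ERRα-/- PBS cells. In ERRα+/+ cells Gpd2 had 4.29, 4.96 and 5.01 with LPS, against 0.83, 0.90 and 0.45 with PBS. The groups were far apart, and Gpd2 rose by 4.12 ± 0.26 in ERRα-/- and 4.03 ± 0.26 in ERRα+/+ cells. Dhodh, of pyrimidine synthesis, fell by 1.31 ± 0.21 in ERRα-/- and by 1.12 ± 0.21 in ERRα+/+ cells, and Etfdh, which takes electrons from fatty acid oxidation, fell by 1.39 ± 0.22 and by 1.31 ± 0.22. Prodh, of proline breakdown, was lower in ERRα-/- cells at -0.77 ± 0.20, and Sqor, which oxidises sulfide, was higher in ERRα+/+ cells at 0.77 ± 0.24.

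Ubiquinone, the electron acceptor of complex I, is made by the Coq and Pdss enzymes. Of 12 tested genes of this list, 2 rose and 3 fell in ERRα-/- cells, and 2 rose and 2 fell in ERRα+/+ cells. These are 16.7% and 25% in ERRα-/- cells, against 25.1% and 25.3% of all genes, and 16.7% each in ERRα+/+ cells, against 22.2% and 23.7%, at or below the shares of all genes. Pdss1, which makes the tail of ubiquinone, rose by 2.79 ± 0.54 in ERRα-/- and 2.47 ± 0.54 in ERRα+/+ cells. The ubiquinone-binding proteins Coq10a and Coq10b went opposite ways, with Coq10a at -2.15 ± 0.41 and Coq10b at 1.79 ± 0.32 in ERRα-/- cells, and -2.16 ± 0.41 and 1.41 ± 0.32 in ERRα+/+ cells. Coq6, a hydroxylase, was lower in both genotypes at -0.43 ± 0.15 and -0.52 ± 0.15, and Coq4 was lower in ERRα-/- cells at -0.57 ± 0.18. Among the ERR family, its coactivators and mitochondrial regulators, 3 of 8 tested genes, or 37.5%, rose in each genotype and 0 fell, against 25.1% and 22.2% of all genes that rose. With slide as a block 6 of 8 rose in each, against 33.5% and 31.3% of all genes. They were Esrra, by 3.09 ± 0.51 in ERRα-/- and 1.62 ± 0.51 in ERRα+/+ cells, Ppargc1b, by 1.44 ± 0.36 and 2.23 ± 0.36, and Pprc1, by 1.16 ± 0.19 and 1.28 ± 0.19. The call of Esrra in ERRα+/+ cells was lost with quantile normalization (adjusted p = 0.0922) and without ERRα+/+ LPS replicate 2 or 3 or PBS replicate 1 or 2. As a check of the treatment, 6 of 6 genes known to be induced by LPS rose in each genotype. For Il6 and Ptgs2, which were not well above background on any PBS array, the size of the rise is not given. The other 4 rose by 6.92 (Tnf) to 9.21 (Acod1) in ERRα-/- and by 7.03 (Nos2) to 11.58 (Acod1) in ERRα+/+ cells. ERRα-/- PBS replicate 1 had Acod1 at 3.11, against -0.48 and -0.12 on the other 2 arrays of its group. It had Tnf at 2.58, against 0.56 and 0.57. In replicate order, Nos2 in this group was -1.15, -1.13 and -1.22, and Il1b 1.54, 1.21 and 0.995. Tnf was also highest on replicate 1 in ERRα+/+ PBS cells, at 1.39 against 0.19 and 0.14. The rises of Acod1 and Tnf in ERRα-/- cells are thus smaller with ERRα-/- PBS replicate 1 than without it, and the cause of its levels was not tested.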

How the data were processed

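RNA of the 12 samples was measured on 1-colour Agilent arrays. Per the file headers, the deposited processed signal intensity was made with Agilent Feature Extraction 11.5.1.1 (the submitters' processing notes name 9.3.2.1), background-subtracted within each array and not normalized between arrays. Per the labels, replicate 1 used a format of 4 arrays per slide and replicates 2 and 3 one of 8, but all files held the same 62976 spots. The authors' deposited series table equalled the processed signal at all 755712 values (relative tolerance 1e-06).

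Control spots were removed, spots of a probe averaged and log2 values centred on the array's 75th percentile (a processed signal of 289 to 610). Probes were named by accession through RefSeq, 27509 of 55681, and each of 20887 genes was read from its brightest kept probe. The share of probes well above background was 45.3% to 56.7% by array, and no spot was saturated. Precision is limited by the number of arrays. limma 3.58.1 in R 4.3.3 was fitted with 1 mean per group and 6 contrasts, and tested on simulated data. Alternatives were normexp with an offset of 50, quantile normalization, no filter, a stricter filter, the mean of probes, outlier spots left out, slide or replicate as a block, each slide alone and each array left out. normexp used the authors' median signal intensity, a choice made after the files were seen.

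Same-numbered samples deviated together in all 18 pairs across groups (r 0.14 to 0.78, median 0.30). By the rule used, the replicate number was therefore fitted as a block among the alternatives. Arrays of other numbers on the same slide correlated by 0.13 to 0.55, arrays on the other slide by -0.71 to -0.17, and 11 of 12 arrays correlated best with their own number. Deviations were taken from each group's mean and cancel within a group. Positive values on a shared slide therefore force negative ones with the other slide. The pairing comes from the data and the slide, not from the labels, which number replicates 2 and 3 alone. Slide 1 held replicate 1 only, so for it a shared number and a shared slide cannot be told apart. On slide 2 other-numbered arrays deviated together too (median r 0.24), so these correlations do not show that same-numbered samples share mice or cultures.

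The members, lists, rule for named genes and alternatives were chosen with earlier results of these data known. Named were the members called in any contrast, the 3 most positive and negative per contrast, core subunits (the values of 1 are not reported here or drawn), Ndufa4, Ndufaf factors, Esrra and list genes that were called.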

Additional observations from a re-analysis of the deposited data

Results flagged for a closer look

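Ndufs3, a core subunit of the peripheral arm, stood out because its genotype difference had opposite signs under the 2 treatments with no overlap in either. Under LPS it had levels of 5.34, 5.38 and 5.35 in ERRα-/- cells, against 5.34, 5.30 and 5.29 in ERRα+/+ cells. Under PBS it had 5.45, 5.43 and 5.45 in ERRα-/- cells, against 5.55, 5.47 and 5.53 in ERRα+/+ cells. The genotype differences were 0.05 ± 0.11 and -0.08 ± 0.11, and the difference between them was 0.12 ± 0.16 (limma adjusted p = 0.9999), which did not pass the test. The lowest ERRα-/- LPS array and the highest ERRα+/+ LPS array were 0.004 apart.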

How the results depend on the processing

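Complex I genes called lower with LPS numbered 4 in ERRα-/- and 5 in ERRα+/+ cells. They were 8 and 9 with normexp, 26 and 22 with quantile normalization, 2 and 2 without the filter on dim probes, 9 and 12 with slide as a block, 9 and 9 with the replicate block and 15 and 15 within slide 2, and 7 in ERRα-/- cells with the mean of probes. Of all 13113 genes, 3318 and 3111 were called lower, against 2977 and 2867 with normexp. Without the filter 2908 and 2641 of 20887 were, and with the mean of probes 3340 in ERRα-/- cells. Shares of all genes for the other settings are given above. Complex I genes called higher, 2 and 3, became 1 and 0 with quantile normalization, 1 and 1 without the filter, and 6 in ERRα+/+ cells within slide 2. Without the filter 2884 and 2542 of all 20887 genes were called higher. The median LPS difference became -0.50 in ERRα-/- and -0.47 in ERRα+/+ cells with quantile normalization, -0.11 in ERRα+/+ cells with normexp and 0.045 in ERRα-/- cells on slide 1. Without the filter 20887 genes were tested, and the median of all genes rose by 0.23 in ERRα-/- and 0.16 in ERRα+/+ cells. Of the LPS differences of complex I genes called without a block, that of Ndufb6 alone changed sign, with quantile normalization, to -0.059 in ERRα-/- and -0.021 in ERRα+/+ cells. Medians near 0 changed sign too: that of ERRα-/- cells on slide 1, above, and those between genotypes below. The cause of these shifts was not tested.

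Between genotypes, 1 gene was called lower under LPS by the fit with slide as a block. Within slide 2, 1 was called lower under LPS, 2 higher under PBS, 2 higher and 1 lower on average, and 2 lower in the LPS response. The median under PBS, -0.058, was -0.17 on slide 1 and 0.02 within slide 2. That of the LPS response, 0.021, was -0.04 within slide 2, -0.019 with normexp and -0.029 with quantile normalization. The replicate block called 0 complex I genes between genotypes, lost no call and added 6 LPS calls in ERRα-/- and 5 in ERRα+/+ cells.

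Leaving out 1 array gave 1 to 2 complex I genes higher and 2 to 7 lower in ERRα-/- cells (median -0.10 to -0.03), and 0 to 4 higher and 2 to 6 lower in ERRα+/+ cells (median -0.094 to -0.024). Of all 13113 genes, 2440 to 3725 were then higher and 2693 to 3504 lower in ERRα-/- cells. The ranges in ERRα+/+ cells were 2169 to 3321 higher and 2360 to 3368 lower. In ERRα-/- cells the count of 2 lower genes came without replicate 2 or 3 of either treatment in that genotype, and that of 7 without PBS replicate 1. In ERRα+/+ cells the count of 2 lower genes came without LPS or PBS replicate 2, that of 6 without PBS replicate 1 of either genotype, and that of 0 higher genes without LPS replicate 2 or 3. Genotype counts stayed at 0 to 0, with medians of -0.09 to -0.01 under PBS, -0.08 to -0.01 under LPS, -0.08 to -0.02 averaged and -0.054 to 0.064 for the LPS response. With 3 arrays per group, adjusted p-values near the threshold moved across it, as for Ndufb8 in ERRα-/- cells, called in 3 of 12 fits.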
